A study of Mus musculus with 24 samples.

Results

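Cancer-associated fibroblasts are the activated connective tissue cells of a tumor, and those that contract, with bundles of smooth muscle actin, are called myofibroblasts. The RNA of 10 genes that mark such cells or the matrix they lay down was followed through 24 mouse tumors: Acta2, Tagln, Fap, Pdgfra, Thy1, Postn, Tnc, Fn1, Dcn and Lox. They were chosen by name out of the 55401 genes in the count table, each through the 1 Ensembl identifier that GENCODE M21 gives for its symbol, and not by a threshold on measured values. All 10 passed the filter on low counts in each comparison.

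The study asked how IL-27, a cytokine given as a plasmid, and cabozantinib (cabo), an inhibitor of receptor tyrosine kinases, act on prostate tumors growing in bone. The tumors grew in male C57/BL6 mice of 8 to 10 weeks from TC2Ras, a mouse prostate adenocarcinoma line made from TRAMP-C2 cells by adding activated H-Ras and the mouse androgen receptor. In the subcutaneous experiment, 2 control tumors (empty vector) and 2 IL-27 tumors (IL-27 vector) grew from 300000 cells each and were taken on day 7. In the intratibial experiment, tumors grew from 100000 TC2Ras-Luc cells injected into the tibia, with 4 treatments: empty vector with the vehicle PVP (control), IL-27 vector with PVP (IL-27), empty vector with cabo (cabo), and IL-27 vector with cabo (IL-27+cabo).

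Each of these 4 groups had 3 tumors from day 14 (D14) and 2 taken at the ethical endpoint (EOS). The vector went into leg muscle with ultrasound, and cabo or PVP was given by mouth daily for 2 weeks, so the EOS tumors were taken after dosing had stopped. The day of each EOS harvest is not given in the sources used here. The paper reports longer survival with cabo and with IL-27+cabo than in controls. In comparisons that use EOS tumors, treatment thus cannot be told apart from tumor age and time since dosing. Total counts ran from 63729005 to 83782258 a tumor. Levels are given as counts per 1000000 (CPM), with the subcutaneous and intratibial tumors normalized apart, so levels are not compared between the experiments. Il27 itself stood at 0.805 CPM or less in every tumor of either vector. Of the osteoblast lineage, the defining markers Bglap, Sp7 and Ibsp were at most 0.0992, 0.3005 and 0.4595 CPM in the intratibial tumors, while the list of 10 genes that holds them, with Col1a1 and Spp1, summed to 2207 to 4816 CPM. The epithelial gene Krt8 was at 14.3 CPM or more in all intratibial tumors, at 20.8 and 67.3 CPM in the subcutaneous control tumors and at 2.04 and 4.24 CPM in the subcutaneous IL-27 tumors. Epcam, another epithelial gene, was at 0.238 CPM or less in all subcutaneous tumors.

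As background, fibroblasts become myofibroblasts under transforming growth factor beta and mechanical strain, which act through the transcription factor SRF and its partners on genes of the contractile apparatus. The activated cells also secrete collagens, fibronectin and tenascin-C, and crosslink them into a stiff matrix. In bone, cells of the marrow stroma and periosteum can take on these traits, and many mesenchymal tumor lines make the same matrix proteins. The RNA here came from whole tumor pieces, so fewer cells of a type and less RNA per cell cannot be told apart, nor can fibroblast RNA and RNA of the tumor line.

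By role, 2 of the genes are contractile, 3 encode proteins of the cell surface and 5 encode the matrix or the enzyme that crosslinks it. Acta2 (alpha smooth muscle actin, GRCm38 chr19:34241090-34255590, minus strand) and Tagln (transgelin, an actin-binding protein, chr9:45929619-45936058, minus strand) are the contractile pair. Fap (fibroblast activation protein, a serine protease, chr2:62500943-62574075, minus strand), Pdgfra (a receptor for platelet-derived growth factor, chr5:75152292-75198215, plus strand) and Thy1 (a glycoprotein of fibroblasts that T cells and neurons also carry, chr9:44043384-44048579, plus strand) are at the surface. Postn (periostin, chr3:54361109-54391037, plus strand), Tnc (tenascin-C, chr4:63959785-64047015, minus strand), Fn1 (fibronectin, chr1:71585520-71653200, minus strand) and Dcn (decorin, a small proteoglycan that binds collagen, chr10:97479609-97518143, plus strand) are secreted into the matrix. Lox (lysyl oxidase, chr18:52516067-52529867, minus strand) crosslinks collagen and elastin.

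Genes on the other strand overlap 5 of the 10: Pcsk7 and Gm48529 lie over Tagln, Gm42802 and Gm42803 over Pdgfra, 8030451A03Rik over Tnc, Apol7d over Fn1 and a clone-named gene over Lox. How the authors' counting used strand is not given in the sources used here. Acta2 shares much of its coding sequence with other actin genes, Acta1 of skeletal muscle among them, so reads common to them may have been divided in a way that is not known.

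RefSeq promoter windows (GRCm38.p6) were at hand for 4 of the 10 genes, in 6 windows that reach from 250 bases before the start of transcription to 50 after it. The 150 bases before the start are shown for Acta2, as the contractile gene whose level ran with that of Tagln, and for Postn, as the matrix gene that recurs in the comparisons. SRF binds the CArG box, a core of A and T bases framed by CC and GG. The strict box was in none of the 6 windows and in 1.63% of all 32851 mouse windows, searched on both strands. Boxes with 1 other base in the core, searched after the strict form had not been found, were in 1 of the 6 windows, that of Acta2, and in 8.5% of all windows. The letters TATAAA were in 3 of the 6 windows (Postn and both of Tnc) and in 13.6% of all windows, on either strand. In the lines below, capitals mark the relaxed CArG boxes of Acta2, 84 to 75 and 34 to 25 bases before the start, and the TATAAA of Postn, 26 to 21 bases before it. They are matches of letters, and no binding was measured.
Acta2, chr19:34255374-34255523, minus strand: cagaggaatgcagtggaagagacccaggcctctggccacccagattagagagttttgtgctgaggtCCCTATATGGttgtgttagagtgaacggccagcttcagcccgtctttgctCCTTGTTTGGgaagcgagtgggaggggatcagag
Postn, chr3:54360957-54361106, plus strand: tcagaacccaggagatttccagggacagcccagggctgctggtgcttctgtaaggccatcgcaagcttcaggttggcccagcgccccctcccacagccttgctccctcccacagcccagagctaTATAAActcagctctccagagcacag

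The matrix genes stood far above the contractile genes in the intratibial tumors. Per kilobase of exon, which allows genes to be set side by side, the median over the 20 tumors was 309 CPM for Fn1, 139 for Postn, 131 for Dcn and 72.3 for Tnc. Pdgfra followed at 20.3 and Lox at 12.6, and then Thy1 at 5.79, Acta2 at 5.30, Fap at 1.59 and Tagln at 0.924. Only the step from Tnc to Pdgfra left no overlap between the ranges of neighbours in this order. Postn exceeded Dcn in 12 of 20 tumors and Thy1 exceeded Acta2 in 12 of 20, so those neighbours did not differ beyond their spread. Fn1 exceeded Postn in 18 of 20 and Fap exceeded Tagln in 17 of 20.

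The 4 subcutaneous tumors gave another order on the same scale, led by Dcn with a median of 236 CPM per kilobase and Postn with 171, followed by Fn1 with 59.0. Tagln at 2.78 and Fap at 2.59 came last. Fap was under Tagln in both control tumors (1.15 against 2.23 and 1.71 against 4.796) and above it in both IL-27 tumors (3.47 against 1.26 and 7.79 against 3.33 CPM per kilobase), so their order there depended on the group. The plot of levels by tumor shows how far the 10 genes varied between and within the intratibial groups.

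**Figure D1:**
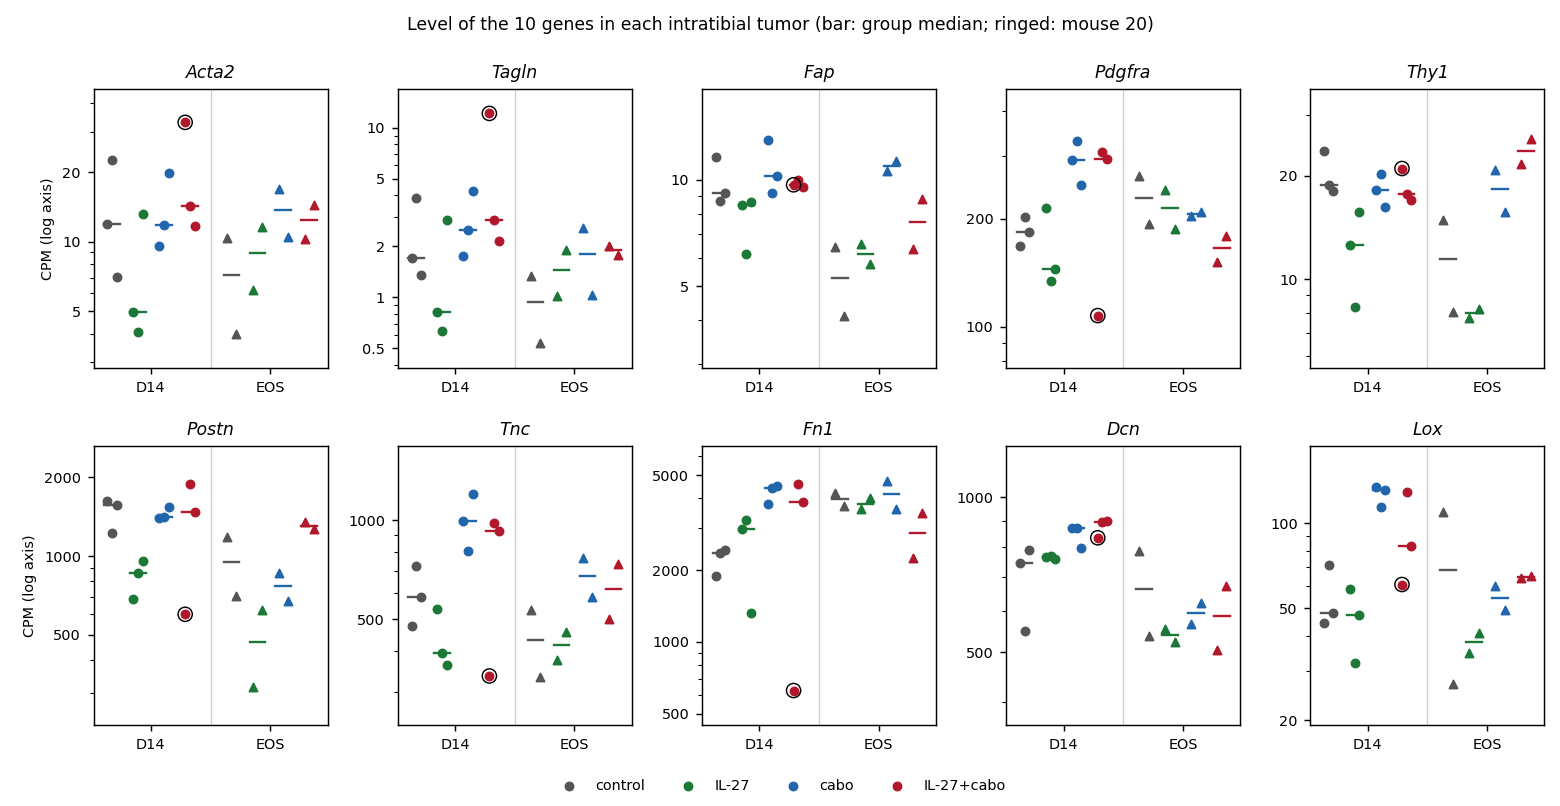
CPM on a log axis, 1 panel per gene, with a point for each of the 20 intratibial tumors (circles D14, triangles EOS) and a bar at each group's median. Lox, Tnc, Fn1 and Pdgfra were higher in all 3 D14 cabo tumors than in all 3 D14 control tumors, and the ringed tumor of mouse 20 had the lowest Fn1 (626 CPM) and the highest Acta2 (32.95 CPM) and Tagln (12.2 CPM).

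One tumor stood apart. In the D14 IL-27+cabo group, Fn1 was 626 CPM in the tumor of mouse 20 and 4587 and 3856 CPM in the other two. Acta2 was 32.95 CPM in it and 14.3 and 11.7 CPM in the others, and Tagln was 12.2 CPM against 2.84 and 2.15 CPM. It was thus lowest in Fn1 and highest in both contractile genes of all 20 intratibial tumors. This library also had the lowest total count, 63729005, and the highest summed level of the skeletal muscle list, 4778 CPM. The 7 epithelial tumor genes, Krt8 and Hras among them, summed to 415 CPM in it, also the highest of the 20, and to 159.6 and 159.8 CPM in the other two of its group. Correlations of log2 CPM over genes with the other tumors of the group went down to 0.908, where those of the D14 cabo group were 0.975 to 0.976. Results that rest on it are given without it as well where a call, a count or a correlation changes. It was singled out in part by values of these genes themselves, so results without it are no independent support for them.

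At D14, Fn1 and Lox, of the matrix genes, were upregulated with cabo. Fn1 was 1883, 2350 and 2439 CPM in the control tumors and 3783, 4421 and 4499 CPM in the cabo tumors. Lox was 44.4, 71.4 and 48.2 CPM in the controls and 134, 114 and 131 CPM with cabo. Neither gene's groups overlapped.

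Fn1 rose 1.87-fold (log2 fold change 0.91, SE 0.14, edgeR adjusted p = 0.0234) and Lox 2.28-fold (1.19, SE 0.18, edgeR adjusted p = 0.0231). These 2 of 10 called genes, both higher, stand against 1.89% of all 18627 tested genes called in either direction, 1.2% called higher and 0.693% called lower. Pdgfra had 168, 202 and 184 CPM in the controls and 292, 330 and 249 CPM with cabo (log2 fold change 0.63, SE 0.12, edgeR adjusted p = 0.0522), just outside the threshold. Tnc had 479, 725 and 586 CPM against 993, 807 and 1198 CPM (0.72, SE 0.19, edgeR adjusted p = 0.113). Dcn lay at 551 to 789 CPM in the controls and 796 to 872 CPM with cabo. The groups did not overlap for 5 of the 10 genes, with cabo higher in each, which was also true of 14.9% of tested genes in that direction.

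The contractile genes gave no such split. Acta2 was 11.99, 22.5 and 7.01 CPM in D14 control tumors and 9.62, 11.9 and 19.9 CPM in D14 cabo tumors. Tagln was 1.71, 3.87 and 1.35 CPM against 1.75, 2.51 and 4.27 CPM. The ranges of both genes overlapped almost whole. Fap (8.71 to 11.6 against 9.20 to 12.95 CPM), Thy1 (18.1 to 23.6 against 16.2 to 20.2 CPM) and Postn (1228 to 1615 against 1397 to 1544 CPM) overlapped as well. The median log2 fold change was 0.72 over the 5 matrix genes, 0.12 over the 3 surface genes and 0.13 over the contractile pair, beside -0.01 over all genes tested.

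Genes of the same pathways followed in small numbers. Of 21 fibrillar collagens and their matrix partners, 3 rose and none fell in D14 cabo tumors, among them Col5a2 (log2 fold change 0.79, SE 0.12) and Col3a1 (0.64, SE 0.11), chains of the collagens of soft tissue. Of 9 genes that crosslink collagen and elastin, where Lox is counted among the 10 and not here, Tgm2 (transglutaminase 2, 0.83, SE 0.08) and Loxl4 (0.51, SE 0.10) rose. Ltbp2, which binds fibrillin in the matrix, was the 1 of 18 genes of the transforming growth factor beta list that rose (0.92, SE 0.12), and Tpm2, a tropomyosin, the 1 of 14 contractile genes (0.50, SE 0.08). None of the 5 genes of the PDGF list, 10 tested SRF and YAP genes, 8 fibronectin and tenascin receptors, 12 inflammatory fibroblast genes or 11 tested resting fibroblast genes passed the test in either direction.

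Other cell types moved between the same tumors. The summed level of the 12 skeletal muscle genes was 1177 to 1831 CPM in D14 cabo tumors and 5.97 to 148 CPM in D14 controls, and that of 8 tendon and synovium genes was 139 to 201 against 14.8 to 35.8 CPM. The 8 endothelial genes summed to 152 to 175 CPM with cabo and 244 to 348 CPM in controls, with 3 of 8 called lower, and the 8 T cell genes to 18.6 to 25.1 against 64.5 to 68.9 CPM, with 6 of 8 called lower. Of the other lists, 4 of 12 muscle genes and 4 of 8 tendon genes were called higher and 2 of 7 pericyte genes lower, and none of the tested osteoblast (6), macrophage (7), adipocyte (6), cartilage (3) or epithelial tumor (7) genes was called. Bglap was at 0 in both groups, Sp7 at 0.0558 to 0.277 CPM with cabo and 0.104 to 0.242 CPM in controls, and Ibsp at 0.0558 to 0.4595 CPM with cabo and at most 0.0538 CPM in controls. With the muscle score as a covariate, Lox had a log2 fold change of 0.42 (edgeR adjusted p = 0.857) and Fn1 of 0.51 (edgeR adjusted p = 0.856). Muscle and cabo separated the same 3 tumors from the same 3, so the parts of the drug and of tissue taken with the tumor cannot be told apart here. Both calls were lost when any 1 of the 3 cabo tumors was left out (edgeR adjusted p from 0.0665 to 0.108), and that of Lox also without control mouse 7 (edgeR adjusted p = 0.0868). They were lost too without a filter on low counts (Fn1 0.0646 and Lox 0.0709, edgeR adjusted p) and with all intratibial tumors in 1 fit (0.956 and 0.475).

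Over both vectors at D14, cabo was compared with PVP in 6 tumors against 6, with the vector as a term. Lox ranged from 60.6 to 134 CPM with cabo and from 31.95 to 71.4 CPM with PVP. It was the 1 of 10 genes called (log2 fold change 1.08, SE 0.20, edgeR adjusted p = 0.0282), beside 1.03% of 19275 tested genes, with 0.54% called higher. Only mouse 20, at 60.6 CPM, lay within the PVP range. With all intratibial tumors in 1 fit its edgeR adjusted p was 0.0618. With 1 tumor left out, Lox kept its call without mouse 4, 5, 8 or 20 and lost it without any of the other 8 (edgeR adjusted p from 0.0525 to 0.0873). Dcn, at 796 to 897 CPM with cabo and 551 to 789 CPM with PVP, was the 1 gene of the 10 whose groups did not overlap, a split found for 2.68% of tested genes, with a log2 fold change of 0.22 (SE 0.11) that did not pass the test. Without mouse 20 these were 5 genes, Dcn, Fn1, Lox, Pdgfra and Tnc, all higher with cabo, beside 4.54% of tested genes in that direction.

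Without mouse 20, 4 genes were called higher with cabo over both vectors, beside 6.5% of 19724 genes called in either direction: Lox (log2 fold change 1.18, edgeR adjusted p = 0.00445), Tnc (0.90, edgeR adjusted p = 0.00934), Pdgfra (0.72, edgeR adjusted p = 0.0112) and Fn1 (0.82, edgeR adjusted p = 0.0346). With it, Tnc stood at 0.74 (edgeR adjusted p = 0.167), Pdgfra at 0.56 (edgeR adjusted p = 0.294) and Fn1 at 0.57 (edgeR adjusted p = 0.617). With the muscle score as a covariate and all 12 tumors, Lox had a log2 fold change of 0.92 (edgeR adjusted p = 1). In the IL-27+cabo tumors of mice 22 and 24, Tnc was 981 and 930 CPM, Pdgfra 307 and 294 CPM and Fn1 4587 and 3856 CPM, all above the 3 D14 control tumors.

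In cabo tumors, part of the matrix group was lower at EOS than at D14. The D14 cabo tumors are those already compared with control, so that comparison and this one are not independent. Lox was 134, 114 and 131 CPM in D14 cabo tumors and 59.8 and 49.2 CPM in EOS cabo tumors. Postn was 1397, 1406 and 1544 CPM at D14 and 865 and 675 CPM at EOS, and Dcn was 870, 872 and 796 CPM against 568 and 623 CPM. For each of these 3 genes all EOS tumors lay under all D14 tumors. Tumors given PVP and not cabo showed part of this too, without a call. From D14 to EOS, Postn had log2 fold changes of -0.63 in control and -0.82 in IL-27 tumors, both without overlap. Dcn had -0.07 in control tumors, with overlap, and -0.50 in IL-27 tumors, without. Lox had 0.33 and -0.27, both with overlap.

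Lox fell by 1.19 on the log2 scale (SE 0.12, edgeR adjusted p = 0.00798), Postn by 0.89 (SE 0.12, edgeR adjusted p = 0.0226) and Dcn by 0.48 (SE 0.08, edgeR adjusted p = 0.0433). The 3 of 10 genes called lower stand beside 2.09% of 19144 tested genes called, 1.14% lower and 0.945% higher. Pdgfra (log2 fold change -0.47, SE 0.12) and Tnc (-0.54, SE 0.19) were also lower in both EOS tumors than in all 3 D14 tumors, without a call. That made 5 genes with groups that did not overlap and EOS lower, beside 20.3% of tested genes. Fn1 was 4730 and 3626 CPM at EOS, 1 value above and 1 below the D14 range of 3783 to 4499 CPM.

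The called genes of the related lists in this comparison were all lower at EOS. They were 4 of 12 inflammatory fibroblast genes, such as Ccl2 (log2 fold change -1.15, SE 0.12) and Cxcl12 (-1.37, SE 0.18), which encode chemokines, and 3 of 11 tested resting fibroblast genes, such as Sfrp2 (-1.54, SE 0.18), a modulator of Wnt signaling, and Pi16 (-1.07, SE 0.15). They also included 3 of 21 collagens and partners, led by Col3a1 (-0.87, SE 0.08) and Col5a2 (-0.62, SE 0.09), and Tgm2 (-0.79, SE 0.09). From the list for transforming growth factor beta, Ltbp2 (-1.42, SE 0.17) and Ccn2 (-1.04, SE 0.19), a matricellular target of that pathway, fell. Over the same tumors 6 of 8 endothelial genes and 3 of 7 pericyte genes were higher at EOS, 3 of 8 tendon genes, 3 of 8 T cell genes and 1 of 7 macrophage genes were lower. The macrophage sum was 533 and 553 CPM at EOS and 698 to 914 CPM at D14, and the muscle sum was 118 and 913 CPM at EOS. With the muscle score as a covariate, the log2 fold change was -1.03 for Lox (edgeR adjusted p = 0.0789), -0.65 for Postn (edgeR adjusted p = 0.0988) and -0.58 for Dcn (edgeR adjusted p = 0.115). Leaving out 1 D14 tumor kept the call of Lox in each case, lost that of Postn without mouse 21 or mouse 27, and lost that of Dcn each time. Leaving out an EOS tumor leaves 1 in that group, so those fits are not used here. With all intratibial tumors in 1 fit the calls of Lox, Postn and Dcn were all lost (edgeR adjusted p = 0.794, 0.969 and 0.822), and without a filter Lox alone kept its call.

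**Figure D2:**
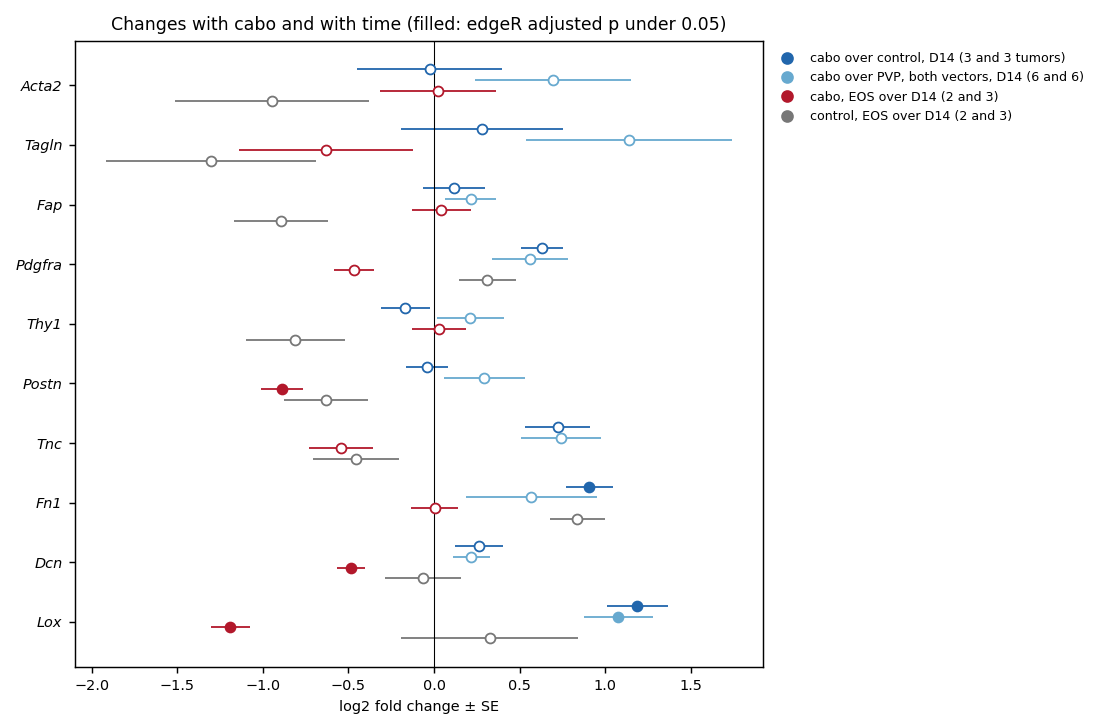
Log2 fold change with its SE for each of the 10 genes, in 4 comparisons of intratibial tumors by color, with filled points where the edgeR adjusted p was under 0.05. Lox was raised with cabo at D14 (1.19 alone, 1.08 over both vectors) and fell by 1.19 from D14 to EOS in cabo tumors, while Fn1 was higher with cabo at D14 (0.91) and stood at 0.84 from D14 to EOS in control tumors without a call. The same D14 cabo tumors entered all of these Lox values, and the same D14 control tumors both Fn1 values, so the values are not independent.

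The other groups gave no call over time. In control tumors Fn1 was 1883, 2350 and 2439 CPM at D14 and 4218 and 3713 CPM at EOS, a log2 fold change of 0.84 (SE 0.16, edgeR adjusted p = 0.14). Both EOS tumors were above all D14 tumors. In control tumors Fap, Thy1, Postn and Tagln lay lower in both EOS tumors than in all D14 tumors, which with Fn1 made 5 genes without overlap, beside 33.5% of tested genes. The T cell sum was 64.5 to 68.9 CPM at D14 and 13.7 and 14.1 CPM at EOS, with 4 of 8 T cell genes called lower, and its part in the values of Thy1, which T cells carry, was not tested. edgeR called 0 of the 10 genes and 0.104% of 19292 genes there, with 4 of the 10, and 13.1% of all genes, at an unadjusted p under 0.05, and DESeq2 called 1, Fn1, and 4.52% of all genes. Within the IL-27 group and within the IL-27+cabo group, edgeR called 0 of the 10 genes and 0% of all tested genes, where 963 and 742 reached an unadjusted p under 0.05, and DESeq2 called 105 and 326 genes but 0 of the 10. In IL-27 tumors 4 of the 10 had groups without overlap, Thy1, Postn and Dcn lower and Fn1 higher at EOS (3596 and 4008 CPM against 1325 to 3233 CPM), beside 24.3% of tested genes. In IL-27+cabo tumors 4 of the 10 had groups without overlap, Tagln, Fap and Dcn lower and Thy1 higher at EOS, beside 22.3% of tested genes. Without mouse 20, Thy1 was higher (as were 18.7% of genes) and 8 genes, the others but for Acta2, were lower (19.4% of genes), still with 0 called. Over all IL-27+cabo tumors, the mean log2 CPM of the muscle genes was 6.24 to 8.23 at D14 and 1.48 and 3.47 at EOS. That of the endothelial genes was 3.13 to 3.38 against 4.84 and 5.43, and that of the T cell genes 0.66 to 1.15 against -1.29 and -0.38. Their part in these values was not tested.

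With the 4 treatments together, 12 D14 tumors against 8 EOS tumors, no member was called, beside 1.08% of 20202 genes. Dcn came closest, at 551 to 897 CPM at D14 and 505 to 787 CPM at EOS (log2 fold change -0.39, SE 0.10, edgeR adjusted p = 0.0601), followed by Postn (-0.57, SE 0.19, edgeR adjusted p = 0.149) and Fap (-0.37, SE 0.14, edgeR adjusted p = 0.222). DESeq2 called Postn and Dcn lower, beside 5.35% of all genes, and edgeR did so without mouse 20, beside 2.92% of 20082 genes (Postn -0.70, edgeR adjusted p = 0.0123, and Dcn -0.41, edgeR adjusted p = 0.0272), and called Dcn lower without D14 control mouse 5 or EOS control mouse 9. Of the related lists, 3 of 11 tested resting fibroblast genes fell, beside 0.738% of all tested genes called lower, among them Pi16 (-1.13, SE 0.22) and Ly6a (-1.42, SE 0.30).

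The change with cabo was also compared between the times directly, as its value at EOS minus that at D14 averaged over the vectors. No member was called, beside 0.292% of 21563 genes, where 1655 reached an unadjusted p under 0.05, while DESeq2 called 282 genes and 0 of the 10. Thy1 had the smallest p of the 10 (difference of log2 fold changes 0.89, SE 0.28, edgeR adjusted p = 0.367) and Pdgfra the next (-0.85, SE 0.33, edgeR adjusted p = 0.543). Without mouse 20, Pdgfra was called lower (-1.0, edgeR adjusted p = 0.0311), beside 0.655% of 21375 genes. At EOS, Pdgfra was 263 and 194 CPM in control, 241 and 187 CPM in IL-27, 204 and 208 CPM in cabo and 151 and 180 CPM in IL-27+cabo tumors. A call for Lox or Fn1 at D14 is therefore no evidence of a difference from EOS, where Lox was 110 and 26.9 CPM in the control tumors and 59.8 and 49.2 CPM in the cabo tumors.

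At EOS, edgeR called 0 of the 10 genes and 0% of 20026 genes in each of IL-27, cabo and IL-27+cabo against control, where 651, 1783 and 2835 reached an unadjusted p under 0.05. Fap was 4.10 and 6.44 CPM in control tumors and 10.6 and 11.3 CPM in cabo tumors (log2 fold change 1.05, SE 0.28, edgeR adjusted p = 0.472). Thy1 was 8.02 and 14.9 CPM in control tumors and 21.6 and 25.5 CPM in IL-27+cabo tumors (1.02, SE 0.30, edgeR adjusted p = 0.227). Both sets of values were apart, as were those of 4 of the 10 genes for cabo and 5 for IL-27+cabo, beside 43% and 42.2% of tested genes. The macrophage sum was 290 and 483 CPM in EOS control tumors, 533 and 553 CPM with cabo and 555 and 953 CPM with IL-27+cabo. The muscle sum was 5.93 and 12.1 CPM in controls, 118 and 913 CPM with cabo and 105 and 228 CPM with IL-27+cabo, and the T cell sum 13.7 and 14.1, 3.59 and 6.98, and 4.71 and 9.81 CPM. Their part in these values was not tested. DESeq2 called these 2 and no other of the 10, Fap with cabo among 270 genes (1.35%) and Thy1 with IL-27+cabo among 928 (4.63%), and 0 of the 10 with IL-27 among 23.

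With IL-27 alone in bone, Postn was the member with the smallest p at both times, without a call. At D14, Postn was 1615, 1228 and 1566 CPM in control tumors and 684, 859 and 958 CPM in IL-27 tumors, with no overlap (log2 fold change -0.80, SE 0.19, edgeR adjusted p = 1). At EOS it was 1187 and 707 CPM in control tumors and 316 and 623 CPM in IL-27 tumors, again apart (-1.02, SE 0.35, edgeR adjusted p = 1). Neither passed the test over all genes, and at EOS Postn was the 1 of 10 genes without overlap, beside 32.8% of tested genes. Among cabo tumors, Postn at D14 was 1397 to 1544 CPM without IL-27 and 599, 1876 and 1476 CPM with it, which overlapped, 599 CPM being mouse 20. At EOS it was 865 and 675 CPM with cabo and 1351 and 1263 CPM with IL-27+cabo, apart and on the other side from the tumors without cabo, a difference that was not tested.

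Thy1 showed the same side at D14, 18.1 to 23.6 CPM in control and 8.34 to 15.7 CPM in IL-27 tumors (log2 fold change -0.71, SE 0.25, edgeR adjusted p = 1). Fap (8.71 to 11.6 against 6.14 to 8.66 CPM) was the third gene without overlap, beside 7.78% of tested genes. edgeR called 0% of 18519 genes in D14 IL-27 tumors, where 511 reached an unadjusted p under 0.05, and DESeq2 called 2 genes and 0 of the 10. The endothelial sum (232 to 288 CPM) and the muscle sum (28.8 to 2025 CPM) overlapped those of the D14 controls. The T cell sum was 67.3, 12.4 and 17.2 CPM in IL-27 tumors and 64.5 to 68.9 CPM in controls, and the macrophage sum 332 to 697 against 452 to 982 CPM, and their part in these values was not tested.

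The combination at D14 was set against each of the other groups. Against control, edgeR called 0 of the 10 genes and 0.064% of 18750 genes, where 1163 reached an unadjusted p under 0.05, and DESeq2 called 483 genes and 0 of the 10. Dcn alone was without overlap there (15.1% of tested genes), and without mouse 20 Dcn, Fn1, Lox, Pdgfra and Tnc were higher (18.4%) and Thy1 lower (16.6%). In the combination tumors muscle summed to 1527 to 4778 CPM (5.97 to 148 CPM in controls), the T cell genes to 14.7 to 20.6 CPM (64.5 to 68.9 CPM), with Cd3e called lower, and the endothelial genes to 92.3 to 148 CPM (244 to 348 CPM). The tendon and synovium genes summed to 41.7 to 131 CPM (14.8 to 35.8 CPM) and the epithelial tumor genes to 159.6 to 415 CPM (118 to 142 CPM). Their part in these values was not tested. Against cabo, edgeR called 0 of the 10 and 0% of 18662 genes, where 359 reached an unadjusted p under 0.05, and DESeq2 5 genes and 0 of the 10. No gene of the 10 was without overlap there, and without mouse 20 Dcn was, higher in the combination, beside 10.5% of tested genes in that direction. Against IL-27, edgeR called 0 of the 10 and 0% of 18570 genes, where 900 reached an unadjusted p under 0.05, and DESeq2 167 genes and 0 of the 10.

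In that last comparison Lox was 60.6, 129 and 83.3 CPM with IL-27+cabo and 58.4, 31.95 and 47.2 CPM with IL-27 (log2 fold change 0.97, SE 0.36, edgeR adjusted p = 0.916), and without mouse 20 it had 1.20 (edgeR adjusted p = 0.294). Lox, Dcn, Fap and Thy1 lay higher in all combination tumors, 4 genes beside 6.81% of tested genes, and without mouse 20 Pdgfra, Postn, Tnc and Fn1 did so too, 8 genes beside 18.1%. The departure of the combination from the sum of the single treatments was called for 0 of the 10 and for 0% of 19899 genes by edgeR, where 375 reached an unadjusted p under 0.05, and DESeq2 called 5 genes and 0 of the 10. The change with IL-27 over both drugs gave 0 of the 10 and 0% of 19275 genes by edgeR, where 669 reached an unadjusted p under 0.05, and 3 genes and 0 of the 10 by DESeq2. Without mouse 20, none of the 10 genes was called in the combination against control, cabo or IL-27, in the departure from the sum or in the change with IL-27.

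Across the 20 intratibial tumors the 2 contractile genes ran together more closely than any other pair. Pearson's r of log2 CPM was 0.94 for Acta2 and Tagln, 0.93 in the 19 tumors without mouse 20 and 0.95 for deviations from the group means. Tnc and Lox had 0.82 (0.86 without mouse 20) and Pdgfra and Fn1 0.77 (0.67). The lowest values were those of Fn1 with Tagln (-0.49) and with Acta2 (-0.34), and they rest on mouse 20, without which they were -0.05 and 0.02. All points share normalization, tissue sampling and, in part, treatment, so these are descriptions over 20 tumors.

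**Figure D3:**
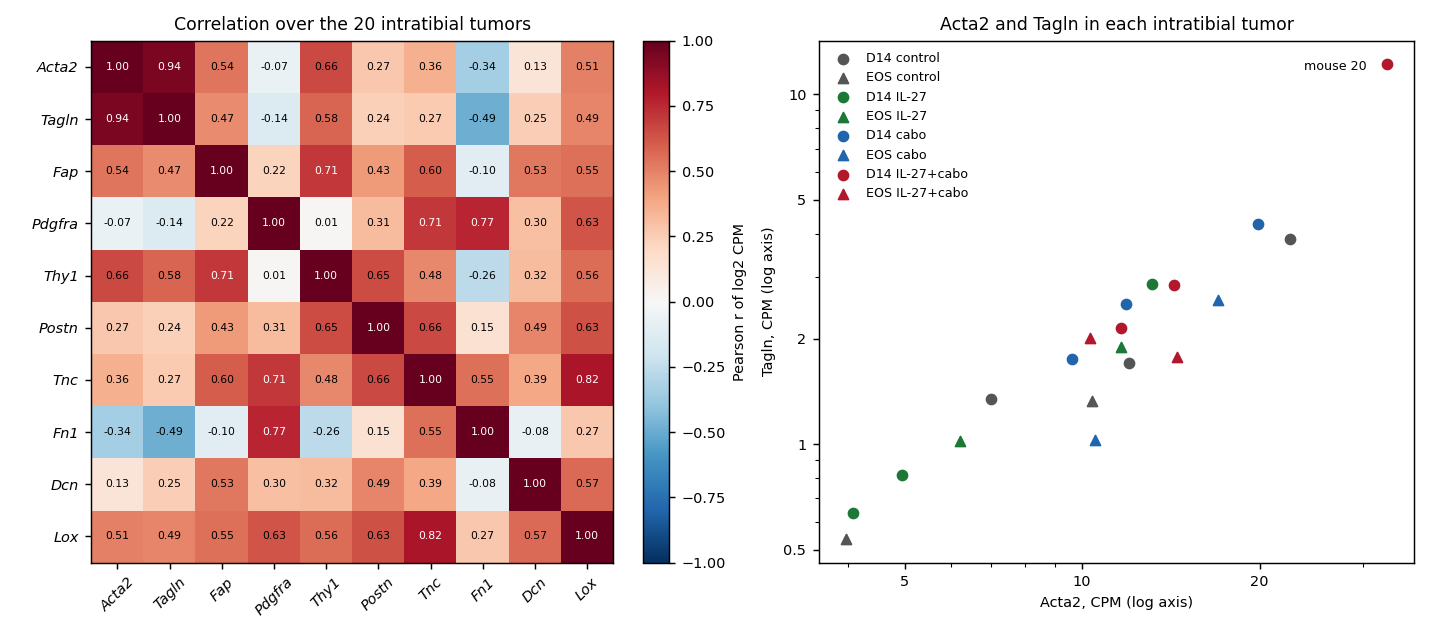
Left, Pearson's r of log2 CPM between each pair of the 10 genes over the 20 intratibial tumors, with the value in each cell. Right, Tagln against Acta2 in CPM on log axes, 1 point per tumor by group and time, where r was 0.94 and mouse 20 is at the upper end.

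The genes nearest to a member in pattern were sought among the 21563 genes that passed the filter over the 20 tumors, by the same r. Tagln was the nearest to Acta2, followed by Isg15 (0.88, and 0.84 without mouse 20), an interferon-induced ubiquitin-like protein, and Cul9 (0.84, and 0.80 without it). Thy1 was followed by Irf7 (0.92), Ms4a4c (0.92) and Rtp4 (0.90), of which Irf7 and Rtp4 are induced by interferon. The nearest to Postn were Fstl1 (0.87), a secreted glycoprotein, and the leukocyte genes Lcp1 (0.86) and Cd84 (0.86). Zfpm2, Slc7a2 and Ktn1 (each 0.89, and 0.85, 0.86 and 0.85 without mouse 20) were nearest to Pdgfra.

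Set against cell type scores, the mean log2 CPM of each marker list, 8 of the 10 members had r over 0.5 with the macrophage score, the exceptions being Pdgfra (0.05) and Fn1 (-0.16), and 7 had without mouse 20, where Dcn was just under it. Thy1 had r = 0.78 with the macrophage score and 0.08 with the T cell score, though T cells carry Thy1, and Postn had 0.71 with the macrophage score (0.77, 0.08 and 0.81 without mouse 20). Tagln had 0.70 with skeletal muscle and 0.71 with tendon and synovium (0.65 and 0.63 without mouse 20), and Acta2 0.59 and 0.53 (0.50 and 0.41). Their r with the macrophage score was 0.59 for Tagln and 0.63 for Acta2 (0.61 and 0.62), for Acta2 above both of its values just given. Dcn had -0.64 with the endothelial and -0.60 with the pericyte score, while Pdgfra lay between -0.32 and 0.31 over the 10 lists, a range that went from -0.65 (endothelium) to 0.46 (osteoblast lineage) without mouse 20. With the score of the osteoblast lineage the highest r over all 20 tumors was 0.40, for Fap. These too are descriptions over 20 tumors.

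In the subcutaneous tumors, IL-27 was compared with control in 2 tumors each. The labels do not give the mouse, and the paper injected cells into each flank, so the tumors of a group may share a mouse. Fap was 6.52 and 9.66 CPM in control tumors and 19.6 and 44.1 CPM in IL-27 tumors. Postn was 872 and 986 CPM in control and 1995 and 2346 CPM in IL-27 tumors. Both were apart and were called higher, Fap 3.94-fold (log2 fold change 1.98, SE 0.50, edgeR adjusted p = 0.0336) and Postn 2.34-fold (1.22, SE 0.32, edgeR adjusted p = 0.0383).

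They were 2 of 10 called genes, where 20% of 19360 tested genes were called, 3.52% of them higher and 16.5% lower. Lox had 36.9 and 83.95 CPM in control and 140 and 302 CPM in IL-27 tumors (1.87, SE 0.54, edgeR adjusted p = 0.0533), and Dcn had 1019 and 789 against 1732 and 2338 CPM (1.17, SE 0.35, edgeR adjusted p = 0.057). Pdgfra (99.8 and 158 against 269 and 235 CPM) was also apart and higher. Fn1 (830 and 1308 against 490 and 549 CPM) and Thy1 (32.5 and 28.7 against 12.5 and 18.2 CPM) were apart and lower, with log2 fold changes of -1.04 (SE 0.36) and -0.99 (SE 0.36). The groups of 7 of the 10 genes did not overlap, beside 66.9% of tested genes. Acta2, Tagln and Tnc overlapped.

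Changes ran with base composition over the whole table. Among all tested genes the median log2 fold change was 0.85 in the quartile with the lowest GC content (17.1% to 44.5%), 0.38 and -0.33 in the middle quartiles and -2.05 in the highest (53.9% to 78.3%). Postn has 36.3% GC in its longest transcript, Dcn 37.4%, Fap 39.7% and Lox 43.9%, while Fn1 has 53.5% and Thy1 55.8%. Between them lie Pdgfra with 48.1% GC (log2 fold change 0.97, SE 0.36), Acta2 with 49.6% (0.19, SE 0.50), Tagln with 52.5% (-0.62, SE 0.64) and Tnc with 52.5% (0.30, SE 0.45), so Tnc and Acta2 lay on the other side of 0 from the median of their quartile. With offsets that remove the trend of each library with GC content and length, 0 of the 10 genes were called. Postn then had a log2 fold change of 0.00 (edgeR adjusted p = 0.998), Fap 0.93 (edgeR adjusted p = 0.24), Dcn -0.08 and Thy1 0.81, so Dcn and Thy1 turned their direction.

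**Figure D4:**
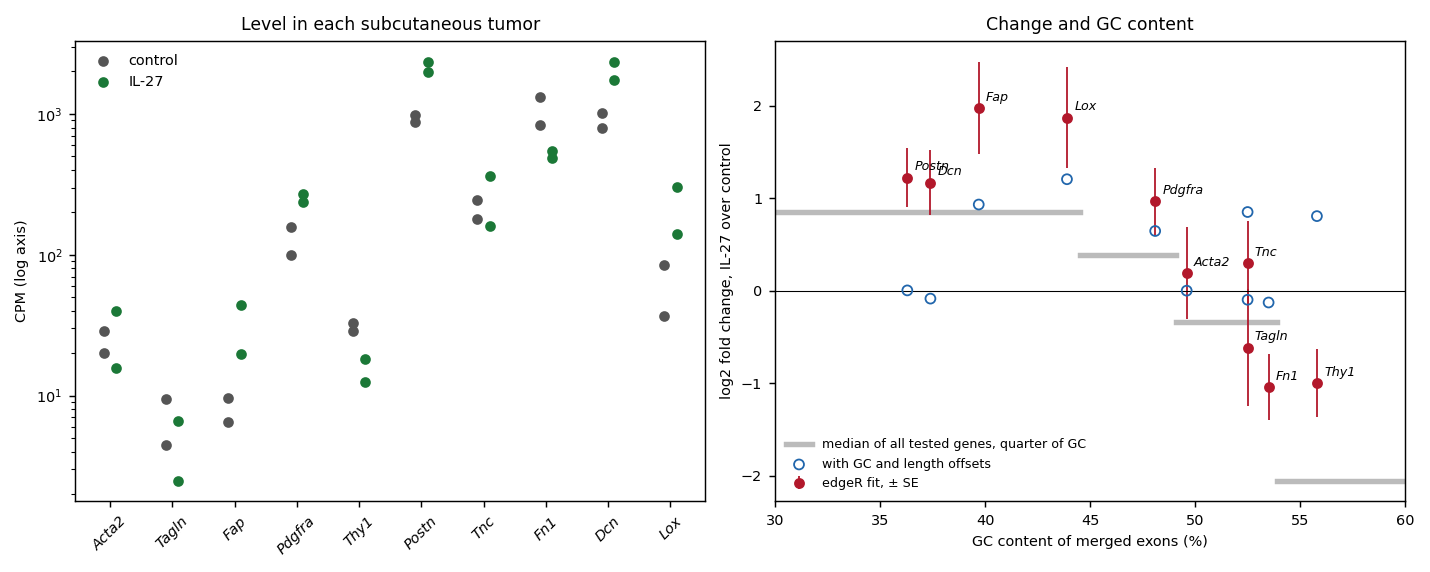
Left, CPM on a log axis of the 10 genes in each of the 4 subcutaneous tumors. Right, log2 fold change with SE against the GC content of each gene's longest transcript (the axis label names merged exons), with grey bars for the median of all tested genes in each quartile of GC content (0.85 in the lowest, -2.05 in the highest) and open circles for the values with GC and length offsets, where Postn is at 0.00 and Fap at 0.93.

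The related lists in the subcutaneous tumors had more genes called lower than higher, as the whole table did. Of 14 contractile genes 5 were lower and none higher, such as Smtn (smoothelin, -4.57, SE 0.36), and 3 of 5 PDGF genes were lower, such as Pdgfrb (-1.76, SE 0.36), with Pdgfd higher (1.62, SE 0.45). Of 9 crosslinking genes 4 were lower, such as Loxl1 (-2.66, SE 0.40), and 1 higher, Plod2 (1.41, SE 0.36). Of 21 collagens and partners 7 were lower, such as Col6a2 (-3.08, SE 0.35), and Lum, encoding the proteoglycan lumican, was higher (1.35, SE 0.37). The inflammatory fibroblast list alone had only higher calls, 3 of 12, with Il6 at 2.85 (SE 0.53). Skeletal muscle genes were higher in 11 of 12, with sums of 382 and 1003 CPM against 2.34 and 13.2 CPM. T cell genes were higher in 3 of 8, such as Cd3g (2.53, SE 0.50). Macrophage genes were lower in 3 of 7, such as C1qa (-3.86, SE 0.45), as were 3 of 7 tumor genes, such as Krt8 (-3.81, SE 0.69), and pericyte genes went both ways, 2 of 7 higher and 2 lower. The part of these cells in the members' values was not tested. Leaving out 1 tumor here leaves a group of 1, so the spread comes from the other group alone. Whether the calls of Fap and Postn hold without a tumor cannot be judged from such fits.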

How the data were processed

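RNA of 24 mouse tumors was measured by stranded, poly(A)-selected sequencing. The authors deposited raw counts per Ensembl gene, not normalized. Their processing notes name FastQC, HISAT2, StringTie and DESeq2, and a human build (GRCh38) although the identifiers are of mouse. The program and annotation behind the counts are not given in the sources used here. Between 30.4% and 35.5% of counts from 1 to 20 were multiples of 4. Of 55401 identifiers, 55141 are in GENCODE M21 (GRCm38), which gave symbols, coordinates, merged exon length and the GC content of each gene's longest transcript.

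Each comparison was a quasi-likelihood F test of edgeR 4.0.16 (R 4.3.3), after filterByExpr and TMM, and genes were called at a Benjamini-Hochberg adjusted p under 0.05 over all tested genes. Pairwise comparisons used those groups only, EOS groups shared 1 fit, and DESeq2 1.42.0 was an alternative, as were RLE size factors, no filter, GC and length offsets, counts divided by 4, a muscle covariate, all intratibial tumors in 1 fit and leaving out each tumor. Overlaps and correlations without mouse 20 were added after seeing the data. The SE is the log2 fold change divided by the square root of F. CPM use TMM library sizes, and log2 CPM a prior count of 2. The p-values measure the spread between tumors of a group, which in the subcutaneous experiment may come from the same mouse. The pipeline was run on simulated counts for some of the comparisons, with changes larger than those of the members called. The simulation had no GC trend, outlying tumor or mixture of tissues, so it does not test the fits under these.

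The members and lists were chosen with earlier results of these data known. All 10 members are named, and from each other list at most 2 called genes per direction, those with the smallest p. For Acta2, Postn, Pdgfra and Thy1 the 3 genes of highest r are named. Il27, Krt8, Epcam, Bglap and Sp7 were named after their values were seen, to check the labels.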

Additional observations from a re-analysis of the deposited data

Results flagged for a closer look

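With IL-27 alone, every subcutaneous tumor was above its controls and every D14 tumor in bone below its own for a pair of genes, Postn and Fap, where 31.9% of all tested genes were apart and higher in the former comparison and 4.73% apart and lower in the latter. Postn had a log2 fold change of 1.22 in the subcutaneous tumors, -0.80 at D14 and -1.02 at EOS in bone. Fap had 1.98 in the subcutaneous tumors and -0.32 at D14, and 0.22 with overlapping groups at EOS. The difference between the experiments was not tested, since they were normalized apart, and the subcutaneous values of Postn and Fap were 0.00 and 0.93 with GC and length offsets.

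Thy1 lay on different sides over time by treatment, with no change passing the test. From D14 to EOS its log2 fold change was -0.81 in control tumors and -0.61 in IL-27 tumors, where both EOS tumors lay under all D14 tumors, and 0.31 in IL-27+cabo tumors, where both lay above. In cabo tumors it was 0.03, with overlapping groups. The edgeR adjusted p-values of the first 3 were 0.315, 0.818 and 0.925. These pairs of differences were not tested singly. The nearest test, of the change with cabo at EOS minus that at D14, gave 0.89 with an edgeR adjusted p of 0.367. No groups of 4 or more tumors were at hand to look for single outlying tumors.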

How the results depend on the processing

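The number of the 10 genes called varied with the tool and the setting. In the subcutaneous comparison 2 were called, 6 by DESeq2 (31.6% of all genes), 4 with RLE size factors (20.4%), 4 with counts divided by 4 (27.9%), and 0 without a filter or with GC and length offsets. Dcn then turned to -0.08 and Thy1 to 0.81. For cabo against control at D14 the count was 2, with 4 by DESeq2 (7.96%), 1 with GC and length offsets, and 0 without a filter, with the muscle score or with all intratibial tumors in 1 fit. The genes called in the whole table ran from 0 to 1483 over these alternatives. Over both vectors it was 1, with 2 by DESeq2 (5.4%) and 0 with the muscle score or in 1 fit. In cabo tumors from D14 to EOS it was 3, with 5 by DESeq2 (9.14%), 1 without a filter, and 0 with the muscle score or in 1 fit. From D14 to EOS over all treatments it was 0, with 2 by DESeq2, 1 with the offsets and 1 with counts divided by 4. Over the alternatives other than leaving out a tumor, 11 to 1080 genes were called there in the whole table. The same counts were 1668 to 6120 in the subcutaneous comparison, 13 to 1041 over both vectors and 51 to 1749 in cabo tumors over time. DESeq2 also called 1 gene where edgeR called 0 for cabo and for IL-27+cabo against control at EOS, and for controls from D14 to EOS.

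Leaving out 1 tumor gave 0 to 2 called genes for cabo at D14 (80 to 588 in the whole table) and 0 to 4 over both vectors (66 to 1282). It gave 0 to 2 over all treatments (83 to 586) and 0 to 1 for the change with cabo at EOS minus that at D14 (33 to 140). Such counts are not given for the subcutaneous comparison or for cabo tumors over time, where these fits can leave a group of 1. The correlation of Acta2 and Fn1 turned from -0.34 to 0.02 without mouse 20. With the replicate block 3 genes were called in the subcutaneous tumors (21.9% of all genes), and 1 with the block and the offsets (12.3%), where Thy1 was at 0.80. The numbers do not pair these tumors by the labels, and deviations of same-numbered tumors had r = 0.0313. No paired analysis was possible because no replicate numbers are shared in the intratibial experiment.

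The genes called in the whole table ranged more widely than 1.5 times, for cabo at D14 from 352 to 1483 by DESeq2 and 0 with the muscle score, and in cabo tumors over time from 400 to 1749 and 51. Of 550 values of 38 gene and comparison pairs recomputed, 461 kept direction and side of the threshold, 53 lost a call, 33 gained one and 3 reversed.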
